A study of Mus musculus with 16 samples.

Results

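Proteoglycan and hyaluronan genes were examined in stromal cells sorted from the bone marrow of sickle cell mice. The set was defined by gene symbol and holds 39 genes: core proteins that carry glycosaminoglycan chains or belong to the same families, the enzymes that make hyaluronan, and the link proteins that tie core proteins to it. All 39 were found among the 52459 genes of the count table. 37 of them had at least 1 read in some library, and 27 passed the filter on low counts that precedes testing. The cells were live singlets gated as negative for CD45, Ter119 and CD31 and as positive for CD51 and CD140a, and the labels call them mesenchymal stem cells. They came from Townes mice, in which human globin genes stand in for the mouse ones in both genotypes. Mice of the SS genotype (hα/hα::βS/βS) are homozygous for human sickle beta globin, on an allele that also holds the human Aγ-globin gene. Mice of the SA genotype (hα/hα::βA/βS), the controls, are homozygous for human alpha globin as well but carry 1 sickle and 1 normal human beta globin. There were 4 SS and 4 SA mice with 1 library each. Nothing beyond the numbering in the titles says that they were separate animals, so p-values measure the spread between these libraries. No treatment is labelled, and the sources used here give no age or sex. The comparison of SS with SA asks how these stromal cells differ in sickle cell disease.

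A proteoglycan is a core protein with long, negatively charged sugar chains (chondroitin, dermatan, heparan or keratan sulfate) that are built in the Golgi. Small leucine-rich proteoglycans bind collagen fibrils and growth factors, large aggregating proteoglycans (hyalectans) hold water together with hyaluronan, and heparan sulfate proteoglycans of the cell surface and basement membrane present growth factors and chemokines. Hyaluronan itself has no core protein and is extruded by synthases in the plasma membrane. In marrow, stromal cells make much of this matrix, while serglycin is the proteoglycan of blood cell granules.

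Library totals ran from 24797857 to 31117007 counts, so that 3 counts, taken here as the floor of detection, correspond to between 0.0967 and 0.113 CPM, a unit of counts scaled to equal library totals after adjustment by TMM factors. The 9 marker genes of marrow reticular stroma, Lepr, Cxcl12 and the sort genes Itgav (CD51) and Pdgfra (CD140a) among them, had reads in every library, and their summed level ran from 14094 CPM in SA replicate 2 to 31361 CPM in SA replicate 4. Transcripts of gated-out cells were also present. The 10 pan-leukocyte genes, Ptprc (CD45) among them, were all lower on average in SS, with sums of 4081, 4688, 1492 and 755 CPM in the 4 SA libraries and 2784, 487, 1229.6 and 329 CPM in the 4 SS libraries. Here and in what follows, the 4 values of a genotype are listed in the order of the replicate numbers, which carry no order of their own. SA replicates 1 and 2 and SS replicate 1 were thus the 3 libraries with most leukocyte transcripts, and none of the 10 genes was at 0 in any library. In SS replicate 2 alone Xist was high (57347 counts against at most 420 elsewhere), where the Y-linked gene Ddx3y had 12 counts against 2282 to 4436 elsewhere. For SS replicate 4, 1 lane is labelled SA in its source and mouse group, although its title gives SS. Titles also hold date-like numbers whose meaning is not given. All SA libraries share 1 such number and no SS library has it, so that it cannot be told apart from genotype, and SS replicate 2 differs in it from the other SS libraries.

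As a group, the members lay somewhat higher in SS than in SA, and no single member passed the test over all genes. Of the 27 tested members 22 had a positive log2 fold change, where 49% of all 17316 tested genes did, and their median log2 fold change was 0.47 against -0.01 for all genes. Of the 9 marker genes of marrow reticular stroma 8 had a positive fold change as well, with a median of 0.15. Among these 9 is Esm1, which also belongs to the further proteoglycan core proteins treated below, and the median is its value. The members were chosen with earlier results of these data known, and no test was run over them as a set. By edgeR's quasi-likelihood test with Benjamini-Hochberg adjustment 0 of 27 members passed at 0.05, as did 0 (0%) of all genes. At an unadjusted p under 0.05, 7 members were higher in SS (Aspn, Hspg2, Vcan, Gpc6, Has2, Sdc2 and Prelp), where 4.03% of all genes were, and 0 were lower, where 2.96% were. DESeq2, which called 1.65% of the genes it tested, called 1 member, Aspn, and limma-voom called 0. The genotypes did not overlap, with every SS library above every SA library, for 3 members (Aspn, Gpc6 and Has2), against 2.36% of all genes, and with every SS library below for 0 members, against 1.55%. A low-count filter keeps a scarce gene only if it is present in enough libraries, so that these counts speak for the 27 and not for the 39. Adjusted p-values below are edgeR's over all genes unless another tool is named.

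**Figure D1:**
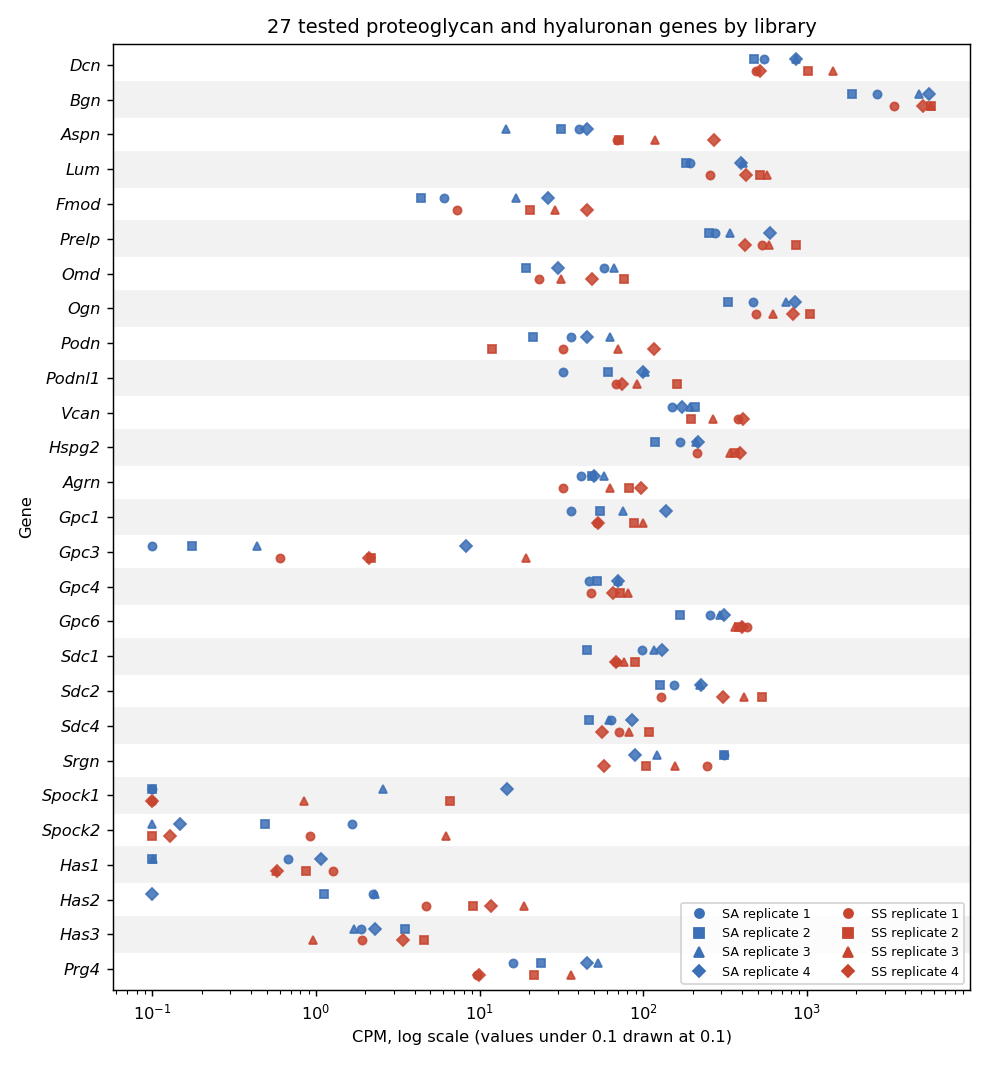
CPM of the 27 tested members on a log axis, with 1 point per mouse, SA above SS within each row and values under 0.1 CPM drawn at 0.1. Aspn, Gpc6 and Has2 are the rows in which the SS points all lie to the right of the SA points, and Bgn lies farthest right, at 1879 to 5778 CPM.

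The members' levels differed between libraries together with those of leukocyte transcripts. The median deviation of the 27 members from their own mean over all libraries was -0.42, -0.88, 0.04 and 0.22 (log2) in the 4 SA libraries and -0.27, 0.55, 0.50 and 0.32 in the 4 SS libraries. The 3 negative values belong to the 3 libraries richest in leukocyte transcripts, and SA replicate 2 was the lowest library for 13 of the 27 members. SS replicates 2, 3 and 4 were the highest library for 7, 7 and 6 members. With the pan-leukocyte level of each library as a covariate, 17 of 27 members had a positive fold change, the median was 0.16 (-0.0085 over all genes), and 5 were higher at an unadjusted p under 0.05 (Aspn, Vcan, Hspg2, Gpc6 and Has2), as were 2.88% of all genes. Without the 3 leukocyte-rich libraries 26 members were tested, the median was 0.25, and 3 were higher at that level (Aspn, Hspg2 and Sdc2, against 3.25% of all genes) and 1 lower (Sdc1, against 2.78%). In these 5 libraries, 2 SA and 3 SS, 8 of 27 members had every SS library above every SA library, against 11.4% of all genes. With only SS replicate 3 left out, 4 members were higher at an unadjusted p under 0.05 (Aspn, Vcan, Hspg2 and Gpc6, against 2.84% of all genes) and 1 lower (Prg4, against 1.90%). In sorted bulk RNA, fewer cells of a type and less RNA per cell cannot be told apart.

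Markers of other stromal cells differed between libraries as well. The 9 pericyte and smooth muscle genes summed to 657, 803, 837 and 766 CPM in SA and to 1508.5, 1309, 1798 and 6574 CPM in SS, so that every SS library lay above every SA library. All 9 had a positive fold change, where 49% of all genes did. At an unadjusted p under 0.05, 5 were higher, where 4.03% of all genes were. Of 9 fibroblast genes 7 had higher means in SS, with sums of 62.5 to 124 CPM in SA and 122 to 224 CPM in SS. The 8 osteoblast and osteocyte genes summed to 3245 to 15017 CPM in SA and 2432 to 8620 CPM in SS. Their part in the members' values was not tested.

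**Figure D2:**
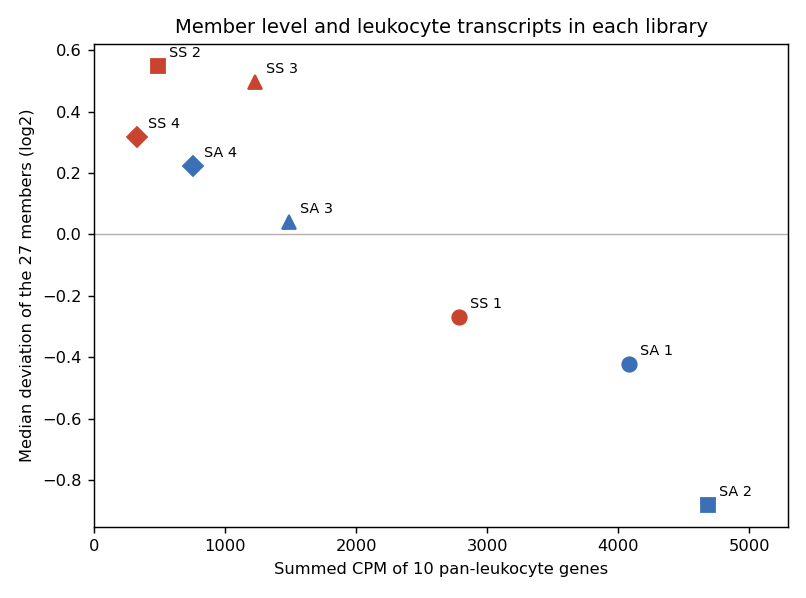
Median deviation of the 27 tested members from their mean over 8 libraries (log2, vertical axis) against the summed CPM of 10 pan-leukocyte genes (horizontal axis), with 1 point per library. SA 2, at 4688 CPM, has the lowest median deviation (-0.88), and SS 2, at 487 CPM, the highest (0.55).

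Per kilobase of exon, the most abundant member was Bgn. Its level was 615 ± 288 CPM per kb (SD, n = 4) in SA and 821 ± 182 CPM per kb in SS. Ogn followed at 233 ± 93.1 and 289.9 ± 95.7 CPM per kb, then Lum at 120.5 ± 50.2 and 181 ± 56.6 CPM per kb, Prelp at 101 ± 43.3 and 166 ± 52.3 CPM per kb and Dcn at 117 ± 34.3 and 149 ± 78.4 CPM per kb. The 5 most abundant members were thus all small leucine-rich proteoglycans, and the spreads of Lum, Prelp and Dcn overlapped, so that their order is not fixed. Srgn (95.1 ± 54.9 and 63.98 ± 36.8 CPM per kb), Sdc2 (51.7 ± 14.1 and 97.5 ± 48.5 CPM per kb) and Gpc6 (40.2 ± 10.2 and 61.7 ± 4.53 CPM per kb) came next. Lengths are the union of all annotated exons, which understates the level of genes with long, rarely used exons.

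The class I small leucine-rich proteoglycans are Dcn, Bgn and Aspn. Asporin, encoded by Aspn, binds collagen and calcium and is known to restrain TGF-beta. Aspn was at 40.3, 31.3, 14.5 and 45.4 CPM in the 4 SA libraries and 68.9, 70.7, 119 and 271 CPM in the 4 SS libraries. Every SS mouse lay above every SA mouse, by 4.02-fold between means (log2 fold change 2.01, SE 0.49, adjusted p = 0.52). By DESeq2 its adjusted p was 0.0215. SS replicate 4 was far above the rest, and without it the log2 fold change was 1.39. The summed pericyte and smooth muscle genes also separated the genotypes, with 657 to 837 CPM in SA, 1309 to 1798 CPM in SS replicates 1 to 3 and 6574 CPM in SS replicate 4. Within SA the order differed, since SA replicate 3 had the highest of these sums (837 CPM) and the lowest Aspn value (14.5 CPM). None of those 9 genes was at 0 in any library, and the pericyte gene Rgs5 alone reached 4998 CPM in SS replicate 4. Their part in the Aspn result was not tested. With the leukocyte covariate Aspn was at 1.48.

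Decorin and biglycan are the classic dermatan or chondroitin sulfate proteoglycans of fibrillar matrix, and both bind TGF-beta. Bgn was at 2672, 1879, 4848 and 5596 CPM in the 4 SA libraries and 3402, 5734, 5778 and 5114 CPM in the 4 SS libraries. It overlapped between genotypes, with SA replicate 4 above SS replicates 1 and 4 (log2 fold change 0.42, SE 0.34, adjusted p = 0.822, and 0.04 with the leukocyte covariate). Dcn was at 549, 476, 858 and 854 CPM in the 4 SA libraries and 490.4, 1009, 1454 and 518 CPM in the 4 SS libraries. SS replicates 1 and 4 lay among the SA values, and the difference was within the spread between mice (log2 fold change 0.34, SE 0.36, adjusted p = 0.867).

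Among class II members, lumican (Lum) and PRELP organise collagen fibrils, and PRELP also anchors basement membrane to connective tissue. Prelp was at 274, 253, 337 and 593 CPM in the 4 SA libraries and 530.1, 863, 589 and 418 CPM in the 4 SS libraries. SA replicate 4 lay above 3 of the SS mice, and the others of SA below all of them (log2 fold change 0.72, SE 0.31, adjusted p = 0.695). Lum was at 194, 183, 405 and 398 CPM in the 4 SA libraries and 256, 515, 574 and 425 CPM in the 4 SS libraries. SA replicates 3 and 4 lay above SS replicate 1 and below the other 3 SS mice (log2 fold change 0.59, SE 0.33, adjusted p = 0.754). Fibromodulin (Fmod), which binds collagen beside lumican, ran from 4.38 to 26.1 CPM in SA and from 7.22 to 45.1 CPM among SS mice, with overlap (log2 fold change 0.94, SE 0.66, adjusted p = 0.786, and 0.03 with the leukocyte covariate). Keratocan (Kera), the keratan sulfate proteoglycan of cornea, had no read in any library, which allows at most 0.113 CPM by the floor of 3 counts. Prelp shares 350 bases of exon with the antisense gene Gm15851, and reads there cannot be told apart without strand.

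Osteomodulin (Omd) is an acidic class II member of mineralising tissue, and osteoglycin (Ogn), also called mimecan, is of class III. Omd was at 57.8, 19.1, 66.4 and 29.99 CPM in the 4 SA libraries and 23.1, 76.8, 31.3 and 48.4 CPM in the 4 SS libraries. Its genotype means were almost equal (log2 fold change 0.05, SE 0.46, adjusted p = 0.991). Ogn was at 472, 329, 751 and 842 CPM in the 4 SA libraries and 489, 1051, 617 and 819 CPM in the 4 SS libraries. SS replicate 2 was highest and SA replicate 2 lowest, and the genotypes overlapped (log2 fold change 0.31, SE 0.33, adjusted p = 0.865). Epyc, a class III member of cartilage, had at most 7 counts in a library. It shares 1041 bases of exon with Gm10754 on the opposite strand, a gene with no read in any library.

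Aspn, Omd and Ogn are neighbours in 1 cluster on chromosome 13 of GRCm38, all on the plus strand, each with the next as its nearest neighbour downstream among the members. Aspn lies at chr13:49544443-49567565, Omd at chr13:49582462-49592822 and Ogn at chr13:49608046-49624501, and the gaps between them are 14.9 and 15.2 kb. Of the 3, Aspn was separated between genotypes while Omd and Ogn overlapped. That their fold changes differ from each other was not tested. The upstream sequences of these neighbours are shown to set them side by side. Each is the 250 bases before the RefSeq start on GRCm38.p6, from chr13:49544193-49544442 for Aspn, chr13:49582212-49582461 for Omd and chr13:49607765-49608014 for Ogn, written 5′ to 3′ on the plus strand, with motif matches in capitals.
Aspn upstream: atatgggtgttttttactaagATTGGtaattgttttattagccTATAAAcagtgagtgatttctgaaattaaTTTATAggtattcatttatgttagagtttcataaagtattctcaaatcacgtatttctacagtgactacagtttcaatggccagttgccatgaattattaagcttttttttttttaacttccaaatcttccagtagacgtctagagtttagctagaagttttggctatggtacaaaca
Omd upstream: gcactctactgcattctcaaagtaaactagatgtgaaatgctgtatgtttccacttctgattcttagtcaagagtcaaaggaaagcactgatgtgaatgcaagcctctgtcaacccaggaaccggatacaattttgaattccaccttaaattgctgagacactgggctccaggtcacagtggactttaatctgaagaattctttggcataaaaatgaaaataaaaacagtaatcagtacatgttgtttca
Ogn upstream: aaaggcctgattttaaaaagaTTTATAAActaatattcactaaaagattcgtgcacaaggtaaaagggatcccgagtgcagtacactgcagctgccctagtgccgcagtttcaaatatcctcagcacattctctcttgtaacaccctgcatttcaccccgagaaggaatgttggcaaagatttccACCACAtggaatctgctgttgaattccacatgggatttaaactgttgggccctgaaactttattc
Core promoter motifs and sites of AP-1 and RUNX factors were searched on both strands. The first was the box with the letters TATAAA, which 12.4% of 32851 RefSeq promoter windows of the same length hold. The NF-Y box, searched as CCAAT, occurs in 33.8% of these windows. The Sp1 box, searched as GGGCGG, occurs in 32.7%. The AP-1 site, searched as TGANTCA, occurs in 6.75%, and the RUNX site, searched as TGTGGT, in 14%. The Aspn window holds 2 matches to the first motif, beginning 207 and 178 bases before the RefSeq start, and 1 to the NF-Y box. The Ogn window holds 2 overlapping matches to the first motif, on opposite strands, and 1 to the RUNX site. Those to the first motif begin 229 and 227 bases before the RefSeq start. Whether any of these matches acts in a promoter was not tested. In the Omd window the letters of none of the 5 occur. RefSeq windows were matched for 29 of the 39 members.

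Another cluster of members is on chromosome 10, where Dcn, Lum, Kera and Epyc follow each other with gaps of 46.98, 34.17 and 30.38 kb. Dcn and Lum were at 183 CPM or more in every library, and Kera and Epyc at or near 0.

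Podocan (Podn) and podocan-like 1 (Podnl1) form class V. Podnl1 was at 32.3, 61.3, 102 and 100.1 CPM in the 4 SA libraries and 68.1, 159.8, 92.02 and 73.8 CPM in the 4 SS libraries. Podn was at 36.2, 21.2, 62.7 and 45.1 CPM in the 4 SA libraries and 32.3, 11.9, 70.5 and 116 CPM in the 4 SS libraries. Both overlapped between genotypes, and they did not share an order: SS replicate 2 had the highest Podnl1 and the lowest Podn value of all 8 libraries. Log2 fold changes were 0.41 (SE 0.39) for Podnl1 and 0.48 (SE 0.59) for Podn, and without SS replicate 4 Podn was at -0.11.

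Versican (Vcan) is the hyalectan of loose connective tissue and also of monocytes. It was at 149.6, 208, 194 and 173 CPM in the 4 SA libraries and 381, 196, 265 and 406 CPM in the 4 SS libraries. SS replicate 2 lay within the SA range and the other 3 SS mice above it, with a ratio of means of 1.72 that did not pass over all genes (log2 fold change 0.79, SE 0.25, adjusted p = 0.695). SA values of Vcan were close together, and SS replicates 1 and 4 were the highest. With the leukocyte covariate the log2 fold change was 0.82. The 9 macrophage and monocyte genes summed to 1083 to 1803 CPM in SA and to 1024 to 2024 CPM in SS, with none at 0 in all libraries. Most of each genotype's sum was Vcam1 (820 to 1407 CPM), which stromal cells also express. The others did not go one way: Ly6c2 averaged 141 CPM in SA against 38.3 CPM in SS, and Adgre1 14.8 against 38.3 CPM. Their part in the Vcan values was not tested.

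Aggrecan (Acan), the main hyalectan of cartilage, cartilage link protein (Hapln1), which locks aggrecan onto hyaluronan, and chondroadherin (Chad), a class IV leucine-rich protein of cartilage, had most of their reads in SS replicate 2. Acan counts were 4, 2, 41 and 3 in the 4 SA libraries and 1, 880, 3 and 127 in the 4 SS libraries. Reads of Hapln1 numbered 1626 in SS replicate 2 and no more than 6 elsewhere, and those of Chad 1906 there and no more than 20 elsewhere. These 3 did not pass the filter, and their means by genotype rest on 1 mouse. The same library held most Col10a1, the collagen of hypertrophic cartilage, at 333 CPM against at most 10.7 CPM elsewhere. Col2a1, the fibrillar collagen of cartilage, was at 412 CPM there but also at 354 CPM in SA replicate 3, where Hapln1 had no read. The 8 chondrocyte markers summed to 80.01, 192, 517 and 333 CPM in the 4 SA libraries and 78.03, 814, 83.1 and 114 CPM in the 4 SS libraries. 4 of the 8, with Col10a1 and Col2a1 among them, were highest in SS replicate 2. None of the 8 was at 0 in all libraries, and their part in the values of Acan, Hapln1 and Chad was not tested.

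**Figure D3:**
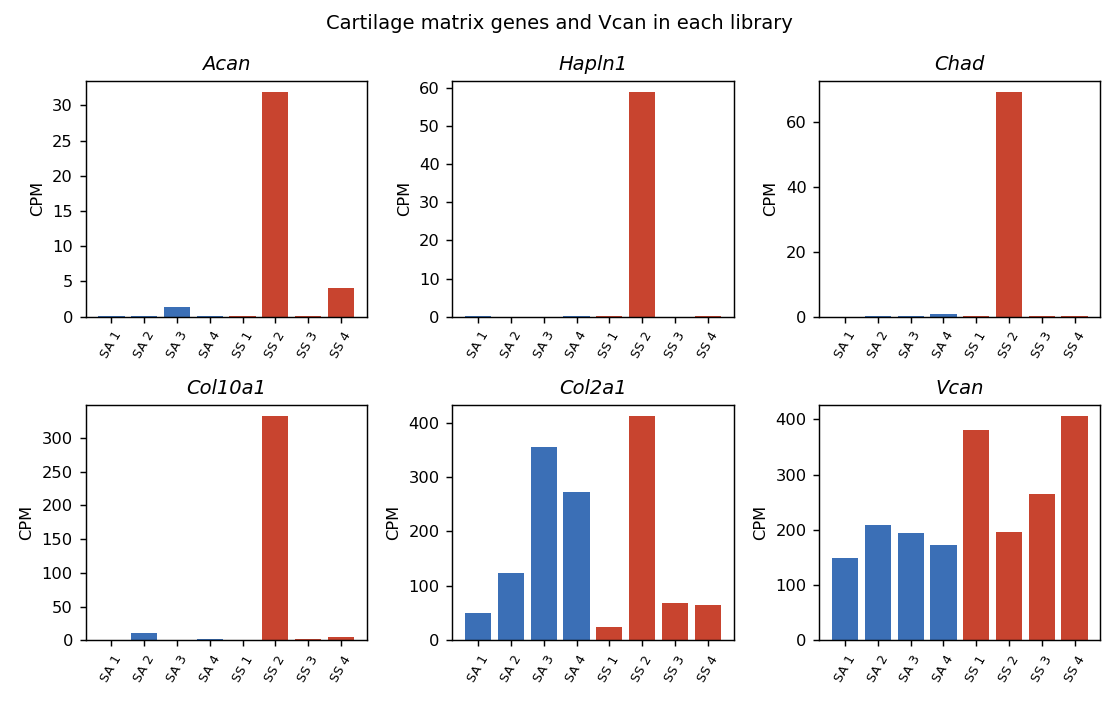
CPM in each of the 8 libraries for Acan, Hapln1 and Chad, the cartilage collagens Col10a1 and Col2a1, and Vcan for comparison (bars, SA in blue and SS in red). Hapln1 and Chad reach 58.9 and 69.0 CPM in SS replicate 2 and stay under 1 CPM elsewhere, while Vcan is at 149.6 CPM or more in all 8.

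Hyalectan and link protein genes lie in pairs. Hapln1 is 43.66 kb from Vcan on chromosome 13, yet in SS replicate 2, where Hapln1 was high, Vcan was at its lowest in SS. Acan (chr7:79053483-79115099) and Hapln3 (chr7:79115102-79131018) lie tail to tail on opposite strands, 2 bases apart. All 48 reads of Hapln3 fell in SS replicate 4, which had 127 Acan reads. SS replicate 2 had 880 Acan reads and no read of Hapln3. Since no source used here gives the strand setting of the counting, reads running past 1 gene cannot be assigned with certainty. Hapln4 counts were 354 in SA replicate 3, 44 in SS replicate 2 and no more than 1 elsewhere. Its neighbour Ncan, 2.222 kb away, had at most 2 counts, and Bcan at most 25. Both are hyalectans of brain.

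Perlecan (Hspg2) and agrin (Agrn) are the heparan sulfate proteoglycans of basement membrane. Hspg2 was at 168, 117, 211 and 215 CPM in the 4 SA libraries and 214, 366, 341 and 391 CPM in the 4 SS libraries. SS replicates 2, 3 and 4 lay above all SA mice, and SS replicate 1 was just under SA replicate 4 (log2 fold change 0.88, SE 0.26, adjusted p = 0.628). Means differed by 1.84-fold. Its sign was positive in all 18 alternatives, from 0.52 with the leukocyte covariate to 1.04 without SS replicate 1. Agrn was at 41.5, 48.4, 57.2 and 49.8 CPM in the 4 SA libraries and 32.2, 81.4, 62.7 and 97.3 CPM in the 4 SS libraries. SS replicate 1 was the lowest of all 8 and SS replicate 4 the highest (log2 fold change 0.47, SE 0.32, adjusted p = 0.778), and with the covariate the log2 fold change was -0.05.

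Glypicans are heparan sulfate proteoglycans tied to the membrane by a lipid anchor, and they shape Wnt, hedgehog and BMP signals. Gpc6 was at 257, 167, 295 and 314 CPM in the 4 SA libraries and 434, 384, 366 and 403 CPM in the 4 SS libraries. All SS mice lay above all SA mice and were close to each other (log2 fold change 0.62, SE 0.22, adjusted p = 0.695). The means differed by 1.54-fold, and with the leukocyte covariate the log2 fold change was 0.52. Gpc4 was at 46.6, 52.5, 70.5 and 70.5 CPM in the 4 SA libraries and 48.1, 72.1, 80.3 and 65.4 CPM in the 4 SS libraries. It was the steadiest of the tested members with reads in every library, with 1.72-fold between the highest and the lowest (log2 fold change 0.15, SE 0.24, adjusted p = 0.93). Gpc1 was at 36.2, 54.7, 75.2 and 137 CPM in the 4 SA libraries and 52.03, 88.1, 99.8 and 52.6 CPM in the 4 SS libraries. SA replicate 4 was highest, and the genotype means were nearly equal (log2 fold change -0.05, SE 0.40, adjusted p = 0.99). Gpc1 shares 977 bases of exon with Ankmy1 on the opposite strand, a gene at 4.38 CPM or less. Gpc3, next to Gpc4 on the X chromosome, reached 19.3 CPM in SS replicate 3 and 8.21 CPM in SA replicate 4 and stayed at or under 2.17 CPM elsewhere. Gpc2 had at most 110 counts and Gpc5, the neighbour of Gpc6 on chromosome 14, 1 count in all. Gpc2 shares 2376 of its 4274 bases of exon with Gm43720 on the same strand. Reads there may have been counted for either gene or for neither, so that the Gpc2 values are uncertain.

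Syndecans span the membrane and bind growth factors and matrix through heparan sulfate. Sdc2, the mesenchymal syndecan, was at 155, 126, 221 and 227 CPM in the 4 SA libraries and 128, 532, 410.0 and 306 CPM in the 4 SS libraries. The 3 higher SS mice exceeded every SA mouse, and SS replicate 1 lay at the low end of SA (log2 fold change 0.92, SE 0.38, adjusted p = 0.695). The covariate brought the log2 fold change to 0.37, while dropping the 3 leukocyte-rich libraries left 0.89. Sdc4, of focal adhesions, was at 63.5, 46.7, 62.2 and 85.4 CPM in the 4 SA libraries and 71.5, 108, 81.3 and 55.8 CPM in the 4 SS libraries. It overlapped throughout (log2 fold change 0.30, SE 0.27, adjusted p = 0.835). Sdc1, the syndecan of epithelia and plasma cells, was at 98.6, 45.4, 116 and 129.5 CPM in the 4 SA libraries and 68.4, 88.6, 76.2 and 68.5 CPM in the 4 SS libraries. It was 1 of 5 members with a negative fold change (log2 fold change -0.37, SE 0.30, adjusted p = 0.818). The 6 plasma cell markers summed to 96.7 to 216 CPM in SA and 115 to 236 CPM in SS, most of it Xbp1, which stromal cells also express. Of the others, Mzb1 lay lower in every SS library (at most 1.56 CPM) than in any SA library (2.88 to 9.55 CPM), Jchain reached 18.4 CPM in SA replicate 1, Prdm1 reached 17.9 CPM in SS replicate 1, and Tnfrsf17 was at 0 in all. Their part in the Sdc1 values was not tested.

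**Figure D4:**
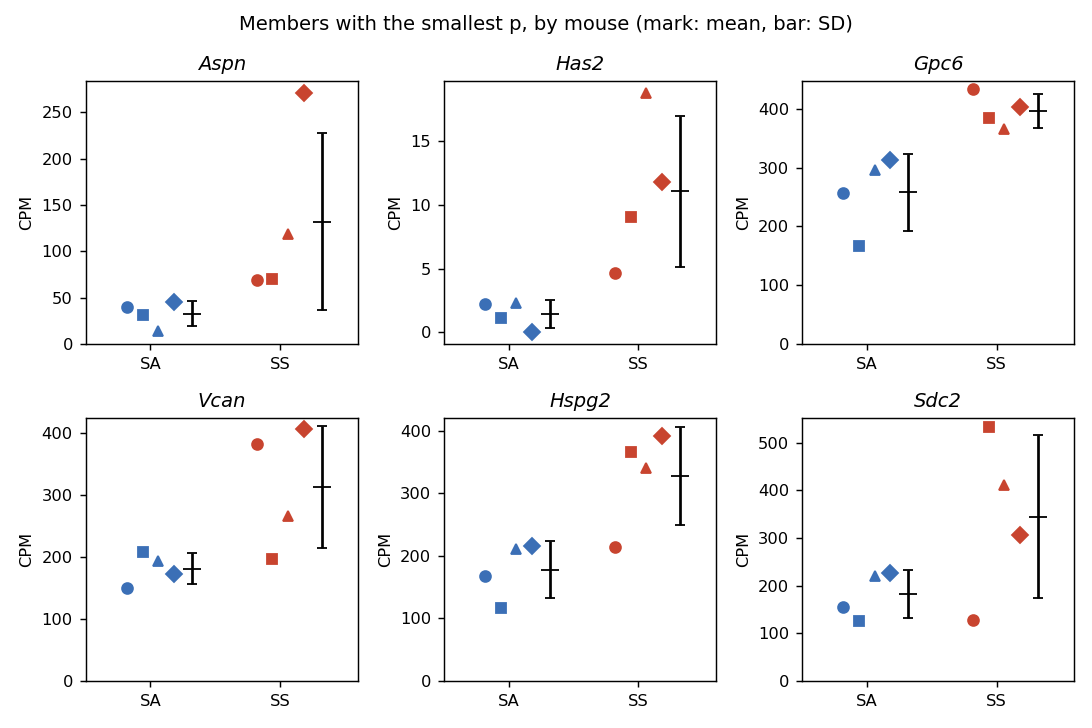
CPM of the 6 members with the smallest p by genotype (points: mice, horizontal mark: mean, bar: SD, n = 4). Aspn, Has2 and Gpc6 do not overlap between SA and SS, while for Vcan, Hspg2 and Sdc2 at least 1 SS mouse lies within the SA range.

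Serglycin (Srgn) packs proteases into the granules of blood cells. It was at 313, 312, 121 and 89.1 CPM in the 4 SA libraries and 246, 103, 155 and 57.4 CPM in the 4 SS libraries. The 3 highest libraries were SA replicates 1 and 2 and SS replicate 1, the leukocyte-rich ones, and the fold change was negative (log2 fold change -0.57, SE 0.50, adjusted p = 0.83). The covariate turned it to 0.37, and dropping those 3 libraries left -0.002. Per kilobase, Srgn was sixth among the members by its mean over all 8 libraries, and in SS it was below Sdc2.

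Testicans (Spock1, Spock2 and Spock3) are secreted proteoglycans best known from brain. Spock1 had 401 counts in SA replicate 4, 183 in SS replicate 2, 77 in SA replicate 3 and at most 24 elsewhere. Of Spock2, SS replicate 3 held 177 counts and no other library more than 44. Spock3 had no read in any library. Values this uneven within a genotype allowed no statement on a difference (log2 fold change -1.20, SE 2.05, in Spock1 and 1.63, SE 1.56, in Spock2).

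Of the hyaluronan synthases, Has2, the main mesenchymal enzyme, had the largest fold change of all tested members. Its counts were 59, 32, 69 and 0 in the 4 SA libraries and 133, 250, 532 and 366 in the 4 SS libraries. This corresponds to 2.22, 1.11, 2.31 and 0 CPM in the 4 SA libraries and 4.69, 9.05, 18.8 and 11.8 CPM in the 4 SS libraries. All 4 SS mice lay above all 4 SA mice, by 7.86-fold between means, but the difference did not pass over all genes (log2 fold change 2.97, SE 1.09, adjusted p = 0.695). By DESeq2 the adjusted p was 0.0941, and leaving out any 1 mouse gave values of 2.56 to 3.29 (log2). The leukocyte covariate gave 3.29, and the 5 libraries poor in leukocyte transcripts 3.51. Has2 lies at chr15:56665627-56694539 on the minus strand. Its exons share 182 bases with the antisense gene Has2os. That gene was at 0.77 CPM in SA replicate 4, the library without Has2 reads, and at 0.29 CPM or less in every other library. Reads in the shared bases cannot be told apart without strand. Without SA replicate 4 the log2 fold change of Has2 was 2.56. Has1 stayed at or under 1.27 CPM and Has3 at or under 4.598 CPM, with no difference beyond the spread between mice (Has1 0.83, SE 1.27, and Has3 0.21, SE 0.81). Has3 shares 352 bases of exon with Chtf8 on the other strand, which was at 26.5 to 64.1 CPM. Reads in those bases may have been counted for either gene or for neither, so that the Has3 values are uncertain.

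Lubricin (Prg4) lubricates joint surfaces. It was at 16.02, 23.7, 53.2 and 45.01 CPM in the 4 SA libraries and 9.65, 21.4, 36.4 and 9.96 CPM in the 4 SS libraries. SS replicates 1 and 4 were lowest and SA replicates 3 and 4 highest, with overlap (log2 fold change -0.83, SE 0.52, adjusted p = 0.766). Prg4 shares 204 bases of exon with Tpr, a nuclear pore gene on the opposite strand at 388 to 468 CPM, and reads of such overlaps cannot be told apart without strand. Its value is uncertain for that reason.

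**Figure D5:**
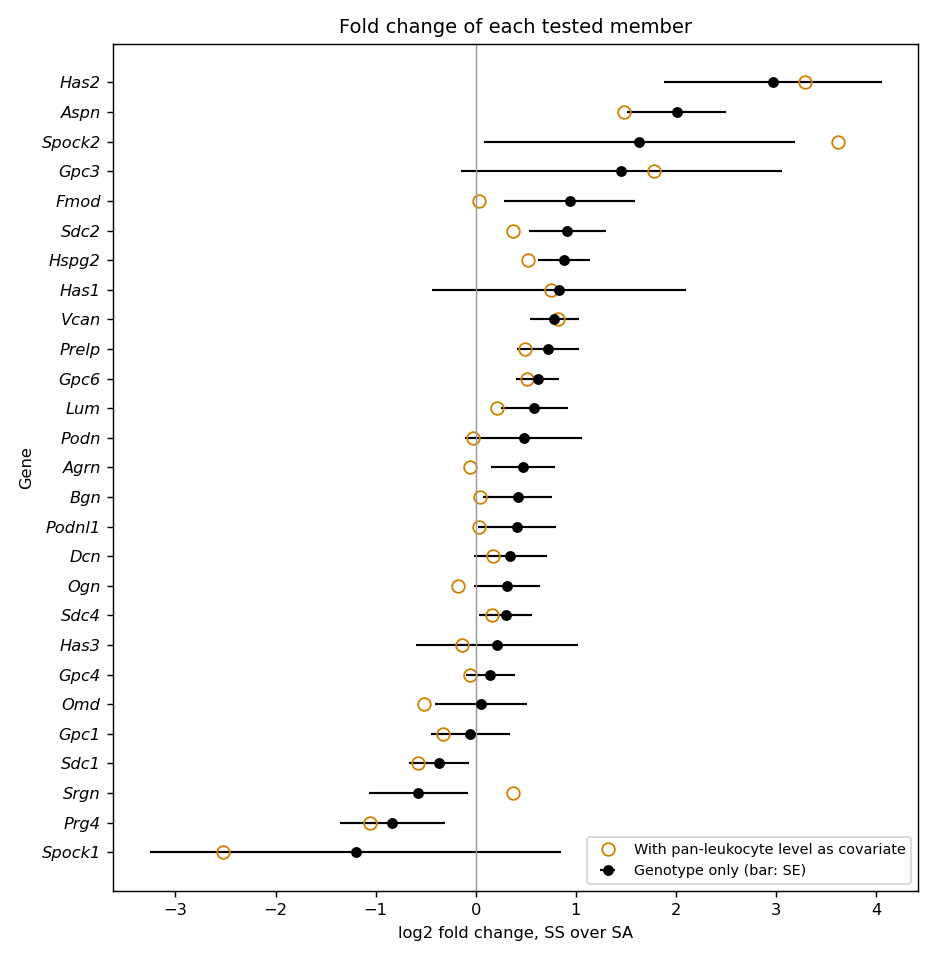
Log2 fold change of SS over SA for the 27 tested members, ordered by size (black points, bars: SE), and the same with the pan-leukocyte level as a covariate (open orange circles). Has2 and Aspn lead with values of 2.97 and 2.01 and are at 3.29 and 1.48 with the covariate, while Fmod, Bgn and Podnl1 move close to 0.

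The machinery that builds and clears these chains was followed in 114 further genes, of which 97 were tested. 63 of 97 had a positive fold change (49% of all genes), with a median of 0.22. By edgeR 0 passed over all genes, 13 were higher (4.03% of all genes) and 0 lower (2.96%) at an unadjusted p under 0.05. The 13 include B3gnt7, a scarce gene that passed the filter only through its SS libraries and so had to differ. Hyal3, also among them and scarce, overlapped between genotypes. It had 177 counts in SS replicate 1, 18 in SA replicate 4 and no more than 21 in any other library. With a filter of 1 CPM in 4 libraries 11 were higher, as were 4.32% of all genes it kept. DESeq2, which called 1.65% of the genes it tested, called 3 of the 97, Ptx3, Tmem2 and Col18a1, and limma-voom called 0. At an unadjusted p, 8 were higher and 4 lower with the leukocyte covariate (2.88% and 2.19% of all genes). Without the leukocyte-rich libraries 8 were higher and 3 lower (3.25% and 2.78%). Without SA replicate 1 it was 8 and 1 (2.99% and 2.08%), without SS replicate 2 it was 6 and 2 (2.64% and 2.04%), and without SS replicate 3 it was 7 and 1 (2.84% and 1.90%). Without SS replicate 1 there were 11 higher and 4 lower (4.68% and 6.07%). Their median was 0.06 with the covariate and 0.09 without SA replicate 2.

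Of 16 tested genes of heparan sulfate synthesis and editing 14 had a positive fold change, with a median of 0.24. Ext1 and Ext2, which form the polymerase of the chain, had log2 fold changes of 0.73 (SE 0.30) and 1.38 (SE 0.43), and the epimerase Glce 1.02 (SE 0.39). Ext2 did not overlap between genotypes, and SS replicate 4 was high at 309 CPM against at most 104 CPM elsewhere. Without that mouse it was at 0.77. Of 16 chondroitin and dermatan sulfate genes 8 were higher and 8 lower (median -0.07). The dermatan epimerase Dse was at 62.4 ± 20.7 CPM (SD, n = 4) across SA mice and 131 ± 26.99 CPM across SS mice, with all SS above all SA (log2 fold change 1.07, SE 0.28, adjusted p = 0.595). Chst15, a chondroitin sulfotransferase named here after its values were seen, was the opposite case, with 125 to 175 CPM in SA and every SS library below that, at 106 to 121 CPM (log2 fold change -0.36, SE 0.18, adjusted p = 0.734). Chpf, a chondroitin polymerising factor, was at 1.08 (SE 0.40) and the sulfotransferase Chst12 at -1.03 (SE 0.47), where the sign turned without the leukocyte-rich libraries.

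The linker that joins chondroitin, dermatan and heparan sulfate chains to the core was covered by 7 genes, 4 higher and 3 lower. Pxylp1, a xylose phosphatase, had a log2 fold change of 0.54 (SE 0.23) without overlap, Xylt2 of 0.80 (SE 0.74) and B3gat3 of 0.30 (SE 0.44). Among 6 keratan sulfate genes 2 were higher, with B3gnt7 at most 1.10 CPM, Chst2 at 0.58 (SE 0.52) and Chst1 at -1.22 (SE 1.41). Of 12 genes of sulfate and sugar donors 9 were higher (median 0.17), and those with the smallest p were Slc35d2 (1.18, SE 0.65), Slc35b2 (0.43, SE 0.39) and Impad1 (0.25, SE 0.24). Of 14 lysosomal genes that break chains down 8 were higher (median 0.09), with Glb1, the lysosomal beta-galactosidase, at 0.92 (SE 0.57). None of these lists had more than 1 gene at an unadjusted p under 0.05.

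Hyaluronan is bound by receptors and cross-linkers and cut at the cell surface. Of 15 tested genes 10 were higher (median 0.38). Ptx3, a pentraxin that crosslinks hyaluronan bound to inter-alpha-inhibitor heavy chains, was at 46.2 ± 18.3 CPM (SD, n = 4) across SA mice and 118 ± 14.5 CPM across SS mice. All SS mice lay above all SA mice (log2 fold change 1.35, SE 0.28, adjusted p = 0.411), and by DESeq2 the adjusted p was 0.00537. Tmem2, a surface hyaluronidase, was at 72.7 ± 17.4 CPM (SD, n = 4) across SA mice and 153 ± 38.5 CPM across SS mice, also without overlap (log2 fold change 1.08, SE 0.25, adjusted p = 0.52, and 0.0213 by DESeq2). Cd44, the main hyaluronan receptor and abundant on leukocytes, was at 306 ± 205 CPM (SD, n = 4) across SA mice and 146 ± 112 CPM across SS mice. Its level was highest in the 3 leukocyte-rich libraries, and its log2 fold change was -1.07 (SE 0.58), and 0.03 with the covariate. Hyal3 was at 6.24 CPM in SS replicate 1 and under 1 CPM elsewhere. The other 4 with a negative fold change were Itih5, Hyal1, Hmmr and Lyve1, named after their values were seen. Itih5, an inter-alpha-inhibitor heavy chain, averaged 347 CPM in SA against 176 CPM in SS, and was highest in SA replicates 3 and 4 (log2 fold change -0.98, SE 0.46, adjusted p = 0.72). The hyaluronidase Hyal1 was at -0.95 (SE 0.52).

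Among 11 further proteoglycan core proteins 8 were higher. Col18a1, a basement membrane collagen that carries heparan sulfate, was at 9.68 ± 3.82 CPM (SD, n = 4) across SA mice and 90.5 ± 92.6 CPM across SS mice. It did not overlap (log2 fold change 3.22, SE 0.66, adjusted p = 0.411), and by DESeq2 the adjusted p was 0.000533. Most of the SS mean came from SS replicate 4, without which the log2 fold change was 2.23, and in which the pericyte sum was highest as well. Sdc3, the syndecan not among the members, was at 84.9 ± 31.8 CPM (SD, n = 4) across SA mice and 156 ± 76.8 CPM across SS mice. SS replicates 1 and 4 lay within the SA range (log2 fold change 0.88, SE 0.37, adjusted p = 0.695). Ptprz1, a receptor phosphatase with chondroitin sulfate chains, had a log2 fold change of -0.83 (SE 0.40).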

How the data were processed

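RNA was sequenced from 8 libraries, 4 SS and 4 SA, each run on 2 lanes that the deposited table joins in 1 column per mouse. The values used are raw read counts per gene symbol as the authors deposited them. Per the submitters' processing notes, STAR, featureCounts, bcl2fastq and DESeq2 were used with GRCm38 (mm10). The sources used here give no annotation, strand setting or version. Genes were filtered with edgeR's filterByExpr (minimum count 10), scaled by TMM and tested with edgeR 4.0.16 (R 4.3.3) by its robust quasi-likelihood F test, with p-values adjusted by Benjamini-Hochberg over 17316 genes at a threshold of 0.05. The SE of a log2 fold change is its size over the root of F. DESeq2 1.42.0, limma-voom (limma 3.58.1), other scalings and filters, a replicate block, a pan-leukocyte covariate and left-out mice were alternatives. The script was tested on simulated counts for 8 libraries with 50 genes changed at each size. At the same threshold edgeR recovered 2% of those changed 2-fold, 36% at 4-fold, 46% at 8-fold and 60% at 16-fold. It made 75 calls, 3 of them false. A gene that did not pass is therefore not shown to be unchanged. Positions and exon lengths come from GENCODE M21 on GRCm38. Members and lists were chosen with earlier results of these data known. Genes were named by a rule: members among the 3 most abundant of their class at 5 CPM or more, or without overlap, and up to 3 of each pathway list by p, with Cd44 and Sdc3. Some genes that the rule names are not reported here. Genes such as Fmod, Spock1 and the cartilage members were described in more detail after their values were seen.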

Additional observations from a re-analysis of the deposited data

Results flagged for a closer look

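In 15 of 68 genotype groups examined, 1 mouse lay far from the other 3 of its genotype. Chance gives about 1 in 20 for normally distributed values without ties, but scarce counts are far from that. The 15 of 68 therefore cannot be set against that rate. For Bcan, for Hapln3 and for Hapln4 in SA the other 3 mice were all at 0, and any read sets the remaining mouse apart. The 15 groups belong to 10 members, all scarce, and 5 of them lie in SS replicate 2. In that library Chad was at 69.0 CPM, Hapln1 at 58.9 CPM, Acan at 31.9 CPM, Spock1 at 6.63 CPM and Hapln4 at 1.59 CPM. In SA replicate 4 Chad was at 0.736 CPM and Gpc3 at 8.21 CPM. In SA replicate 3 Acan was at 1.37 CPM and Hapln4 at 11.8 CPM. SS replicate 3 stood apart for Gpc3 (19.3 CPM) and Spock2 (6.25 CPM), and SS replicate 4 for Gpc2 (3.55 CPM) and Hapln3 (1.55 CPM). Bcan was at 0.868 CPM in SA replicate 2 and at 0.247 CPM in SS replicate 1.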

How the results depend on the processing

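By edgeR 0 of 17316 genes passed. DESeq2 called 319 of the 19321 genes left by its own filter (233 of them among the same 17316), among them 1 member and 3 pathway genes, and edgeR with no filter beyond any count called 5 genes. Leaving out 1 mouse gave 0 to 1 genes (1 without SS replicate 1). The cause was not tested. The sign turned for some named genes. With the pan-leukocyte covariate, log2 fold changes were -0.51 for Omd, -0.17 for Ogn, -0.024 for Podn, -0.054 for Agrn, -0.060 for Gpc4, 0.37 for Srgn, -0.14 for Has3, 0.45 for Chst1, -0.0084 for B3gat3 and 0.031 for Cd44. With library totals Omd was at -0.043, with limma-voom Gpc1 at 0.050, and without the 3 leukocyte-rich libraries Chst12 was at 0.0094 and Chst1 at 0.50. With 1 mouse left out, ranges were -0.021 to 0.54 for Dcn, -0.33 to 0.32 for Omd, -0.11 to 0.82 for Podn, -0.29 to 0.40 for Gpc1, -0.44 to 4.86 for Gpc3, -3.81 to 1.13 for Spock1, -0.70 to 2.93 for Spock2 and -0.17 to 0.50 for Has3. Same-numbered mice did not deviate together (correlations 0.22, -0.15, -0.02 and 0.14). With the replicate block 22 of 27 members had a positive fold change, their median was 0.37 and 0 passed, with Gpc1 at 0.083 and Spock2 at -0.17. Spock2 could not be fitted without the leukocyte-rich libraries, where its counts were too low.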
